A study of Mus musculus with 4 samples.

Results

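The genes of the MYC and MAX network were followed position by position in m6A profiles of mouse retinal organoids with and without degradation of METTL3. All listed positions whose gene name was Myc, Mycn, Mycl, Max, Mga, Mnt or Mxi1 were taken, which gave 7 genes of 20001 gene names. They held 702 of the 1076788 positions listed in any library.

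MYC, MYCN and MYCL are basic helix-loop-helix leucine zipper proteins that bind E-box DNA as dimers with MAX and drive growth and proliferation genes. MNT and MXI1 also dimerise with MAX, recruit SIN3 corepressors and oppose MYC, and MGA joins MAX in a polycomb repressive complex. MYC proteins and their messenger RNAs turn over fast, and N-MYC is known for its part in the proliferation of retinal progenitors. N6-methyladenosine (m6A) is placed on messenger RNA mainly by the METTL3 and METTL14 methyltransferase and is known to mark many messages for decay.

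In GLORI, the assay used, unmethylated adenosine is deaminated to inosine and sequenced as G, whereas m6A is still sequenced as A. The level of a position is its A reads as a share of all its A or G reads. All libraries came from day 6 organoids of an Rx:GFP retinal reporter line in which FKBP12F36V-HA, a degron with an epitope tag, was inserted at the C terminus of the endogenous Mettl3 gene. AGN at 0.1 µM and GMEM medium are named for all 4 samples. The untreated group (2 libraries, 0 h) received no dTAG13, and the dTAG13 group (2 libraries) received 125 nM dTAG13, the degrader of FKBP12F36V fusion proteins, for 8 h. All cells were harvested together, and the labels give a shared batch. The genotype labels name a different Mettl gene in each sample, whereas the other labels name Mettl3. METTL3 protein was not measured here, so its loss was not checked. The labels do not say that the 2 libraries of a group came from separate cultures, so every p-value measures only the spread between these libraries.

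Across the series, the tables placed 260741 and 272174 positions in genes without dTAG13 and 178739 and 201935 with it. Only called positions are listed, with at least 15 reads, 5 A reads and a level of 10%, so a position missing from a library may be unmethylated, below these limits or uncovered. dTAG13 replicate 1 had the fewest listed positions and the lowest median gene coverage, 82.4 against 99.2 to 111 in the other libraries. All 5 eye-field markers (Rax, Six3, Six6, Lhx2, Pax6) had coverage in all 4 libraries, with sums of 1917 and 2293 untreated and 1409 and 1985 with dTAG13. The 4 pluripotency markers (Pou5f1, Nanog, Zfp42, Esrrb) also had coverage in all 4, with sums of 392.5 and 452 untreated and 375 and 422 with dTAG13. The mesoderm marker Tbxt had coverage in none. The part of other cell types in any result on the MYC network was not tested.

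The positions of each gene fell into clusters, taken here as runs of listed positions with no gap over 500 bases. Coordinates are those of the tables. The submitters' processing notes name mm10, but the contig names fit GRCm39, and apart from Mxi1 none of the positions of these genes lay inside the GRCm38 interval of their gene. Exon, intron and UTR were therefore not assigned. Myc had 47 positions on the plus strand of chromosome 15 in 3 clusters of 9, 22 and 16 positions over 4634 bases. Mycn had 88 on the minus strand of chromosome 12, of which 34 and 51 lay in the later clusters and 3 in the most 5′ cluster. Mycl had 71 on the plus strand of chromosome 4, of which 64 lay in the more 3′ of its 2 clusters. The last cluster also held 46 of 58 positions of Max (chromosome 12, minus strand), 85 of 108 of Mnt (chromosome 11, plus) and 67 of 75 of Mxi1 (chromosome 19, plus). Mga (chromosome 2, plus) had 255 positions in 17 clusters over 71528 bases, and 138 of them lay in a stretch of 3979 bases, chr2:119794186-119798164. The bulk of the listed positions thus lay toward the 3′ end of the listed span in Mycl, Max, Mnt and Mxi1. Smaller majorities did so in Mycn (58.0%) and Mga (54.1%), and the positions of Myc were spread more evenly.

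The 7 genes together had fewer listed positions after dTAG13, as did genes at large. The untreated libraries listed 218 and 212 positions and the dTAG13 libraries 148 and 194. The means were 215 ± 4.24 (SD, n = 2) and 171 ± 32.5 (SD, n = 2), a ratio of 0.795 beside 0.714 for all positions in genes. Neither dTAG13 library reached the lower untreated value, and an exact two-sided permutation test returned p = 0.333, which is the lowest value possible with 2 against 2. Mga supplied 74, 67, 56 and 76 of these positions, and without it the ratio was 0.727. Positions with a level of at least 50% numbered 71 and 75 untreated and 54 and 63 with dTAG13, a ratio of 0.801 (exact permutation p = 0.333) beside 0.788 for all genes. Without Mga this ratio was 0.629, from 51 and 46 to 30 and 31. With at least 50 reads per position the 7 genes had 38 and 30 against 28 and 36, which overlapped (ratio 0.941, exact permutation p = 0.667), beside a ratio of 0.849 for all genes.

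The roles of the genes split this sum at high levels more than over all positions. Over all listed positions, Myc, Mycn and Mycl together had 73 and 68 untreated and 33 and 64 with dTAG13 (ratio 0.688), and Mga, Mnt and Mxi1 had 131 and 132 against 98 and 109 (ratio 0.787), so both sets were lower in both dTAG13 libraries. Myc, Mycn and Mycl together had 33 and 26 positions of at least 50% untreated and 16 and 15 with dTAG13, a ratio of 0.525, and the groups did not overlap. The antagonists Mga, Mnt and Mxi1 together had 35 and 46 untreated and 34 and 47 with dTAG13, a ratio of 1.00, and the groups overlapped. Among them only Mga had a higher mean with dTAG13, at 20 and 29 against 24 and 32. Mnt had 11 and 11 against 7 and 12, and Mxi1 had 4 and 6 against 3 and 3. With at least 50 reads, a setting added later for the roles, the MYC genes had 21 and 14 against 7 and 10 (ratio 0.486) and the antagonists 16 and 15 against 18 and 26 (ratio 1.42), and neither overlapped. All positions in genes overlapped at this setting, with 29873 and 30236 against 20465 and 30591 (ratio 0.849). A cut on reads depends on depth. Positions of the 7 genes had a median of 129 reads in dTAG13 replicate 2 and 85 in dTAG13 replicate 1, against 90.5 and 83 untreated. The part of depth in these counts was not tested. At any depth, the exact permutation p was 0.333 for the MYC genes, the smallest possible, and 1 for the antagonists; the difference between these 2 sets was not tested, and they were compared after their values were seen.

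**Figure D1:**
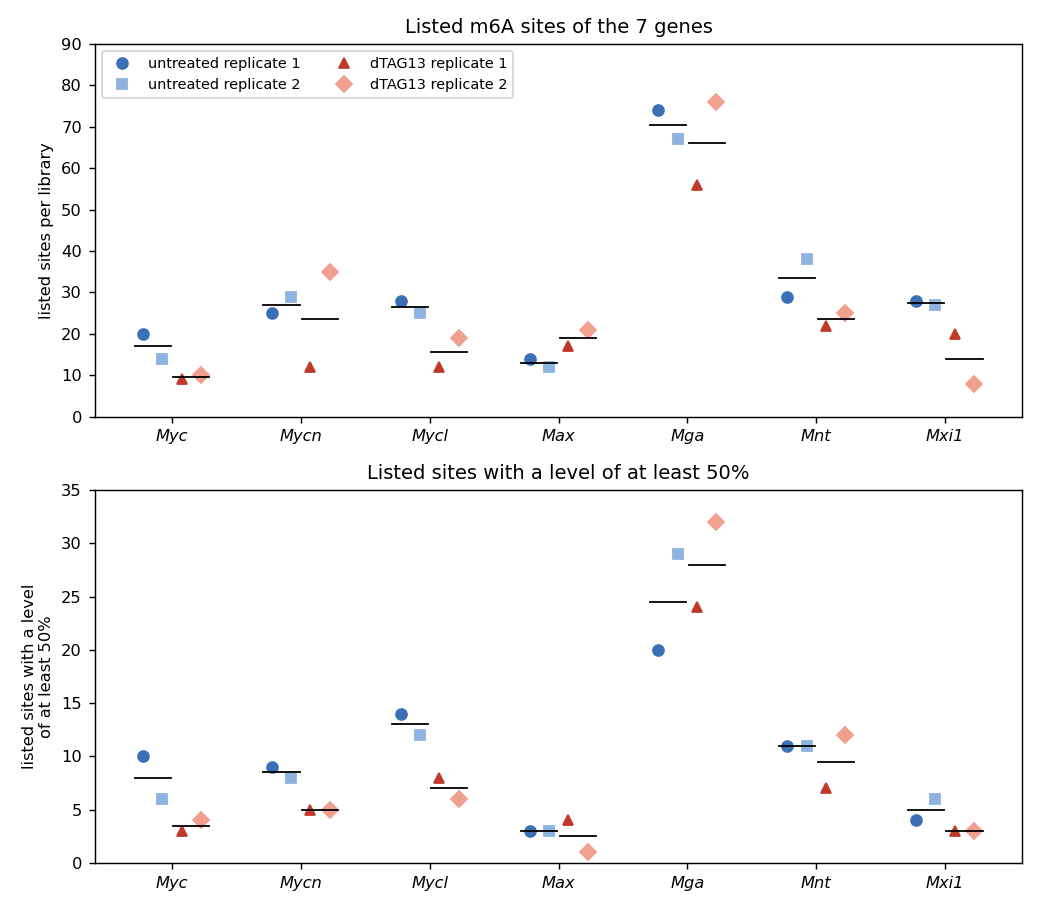
Listed positions per gene (upper) and those with a level of at least 50% (lower) in each of the 4 libraries; short black lines are the means of the 2 libraries of a group. In the lower panel the dTAG13 points lie below the untreated points for Myc, Mycn, Mycl and Mxi1, whereas Max, Mga and Mnt overlap.

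By gene, both dTAG13 libraries listed fewer positions than both untreated libraries for Myc, Mycl, Mnt and Mxi1. That was 4 of 7 genes, where 46.4% of the 12449 genes tested did so. Max alone was higher in both dTAG13 libraries, which 4.51% of genes were, and Mycn and Mga overlapped. For positions of at least 50%, Myc, Mycn, Mycl and Mxi1 were lower in both dTAG13 libraries, 4 of 7 where the background was 22.7%, and none was higher in both (7.34% of genes were). In edgeR's quasi-likelihood test of listed positions, 0 of the 7 and 0 of 12449 genes (0%) had an adjusted p under 0.05. At an unadjusted p under 0.05 there were 0 of the 7 and 20.7% of all genes. The sum of levels over the listed positions of a gene was tested with limma. Here too, 0 of the 7 and 0 of 12520 genes (0%) passed, with 0 of the 7 and 10.1% of all genes at an unadjusted p under 0.05. The summed level was lower in both dTAG13 libraries for Myc, Mycn, Mycl and Mxi1 (background 37.6%) and higher in both for Max (background 7.67%).

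Mycl, the MYC gene named for its discovery in lung cancer, showed the widest gap between the groups in unconverted adenosine. It had 28 and 25 listed positions untreated and 12 and 19 with dTAG13, or 26.5 ± 2.12 against 15.5 ± 4.95 (SD, n = 2). The edgeR log2 change was −0.77 ± 0.32 (SE), with an adjusted p of 0.249, beside a median of −0.51 over all genes. It was −0.83 with gene coverage as offset, −0.27 with TMM normalisation and −0.48 without dTAG13 replicate 1. Its summed level was 15.7 and 14.5 untreated and 7.21 and 8.78 with dTAG13, a log2 change of −0.92 ± 0.37 (SE; limma adjusted p = 0.496; median of all genes −0.37). Neither readout overlapped between the groups, and neither passed the threshold.

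The positions of Mycl listed in both conditions included the largest negative difference of the 7 genes, at 122895271. At chr4:122895039 the level was 79.6% of 711 reads (Wilson 95% interval 76.5 to 82.4%) in untreated replicate 1 and 16.4% of 1491 reads (14.6 to 18.4%) in dTAG13 replicate 2. Likewise, 122894948 had 97.9% of 143 reads and 45.2% of 217, 122895271 had 100% of 58 and 21.8% of 174, and 122894419 had 97.1% of 34 and 31.5% of 165. These 4 positions were read in the same library of each group, so they have no replicate. The other shared positions of Mycl were higher with dTAG13: 122895018 had 32.4% of 772 reads and 36.6% of 1198 in those libraries, and 122895599 had 33.3% of 66 in untreated replicate 1 and 76.7% of 43 in dTAG13 replicate 1. The position 122895018 lies 21 bases from 122895039 and had similar depth, and its intervals in the 2 libraries overlapped (29.2 to 35.8% and 33.9 to 39.3%).

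Other positions of Mycl were listed in both libraries of a single group. In the untreated pair, 122895119 was at 99.0% and 97.96% of 98 reads each, or 98.5 ± 0.72% (SD, n = 2). It was listed in neither dTAG13 library, although dTAG13 replicate 2 had 1491 reads at a position 80 bases away. The untreated pair also shared 122895342 (37.9% of 182 reads, 40.2% of 1111), 122895320 (72.0% of 218, 16.5% of 583) and 122895538 (27.8% of 36, 31.0% of 42). Further 5′ they shared 122894183 (29.5% of 78, 33.3% of 42) and 122890398 (23.0% of 87, 69.6% of 46). The dTAG13 pair shared 122895606 alone, at 72.1% of 43 reads and 72.7% of 33. Levels of at least 80% on at least 50 reads were also listed at positions seen in a single library. These were 122895706 (90.8% of 425) in untreated replicate 1, and 122894272 (87.1% of 93) and 122895774 (97.4% of 78) in untreated replicate 2. With dTAG13 they were 122893971 (83.8% of 136), 122895843 (88.0% of 50) and 122895924 (91.7% of 84) in replicate 1 and 122895368 (100% of 125) in replicate 2.

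Mycn, the MYC gene of neural progenitors, had the same direction at its high levels but not in its number of positions. It had 25 and 29 listed positions untreated and 12 and 35 with dTAG13, so dTAG13 replicate 2 was the highest library of all and replicate 1 the lowest. The edgeR log2 change was −0.20 ± 0.49 (SE; adjusted p = 0.835), with 0.37 without dTAG13 replicate 1, −1.16 without replicate 2 and −0.63 with gene coverage as offset. Positions of at least 50% numbered 9 and 8 untreated and 5 and 5 with dTAG13, with no overlap. The summed level was 11.7 and 11.2 untreated and 5.88 and 10.3 with dTAG13 (log2 change −0.56 ± 0.44 (SE); limma adjusted p = 0.642), and the change was −0.16 without dTAG13 replicate 1.

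The most reproducible high position of Mycn was chr12:12986619 on the minus strand, at 95.0% of 279 reads (91.8 to 97.0%) and 96.8% of 218 reads (93.5 to 98.4%) in the untreated libraries. It was listed in neither dTAG13 library, while dTAG13 replicate 2 listed a position 12 bases away at 14.2% of 296 reads. The untreated pair shared 12986516 too, at 75.8% of 153 reads and 36.3% of 223. The dTAG13 pair listed 12986520, which is 4 bases away, at 51.9% of 133 and 24.4% of 393, and the untreated libraries did not. The dTAG13 pair also shared 12989859, at 12.0% of 191 and 14.1% of 92. At 12986516 and 12986520 the replicates of a group differed by 39.5 and 27.5 points.

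Among positions of Mycn listed in both conditions, 12986991 was at 100% of 187 reads (97.99 to 100%) in untreated replicate 1 and 27.5% of 721 (24.3 to 30.8%) in dTAG13 replicate 2. The position 12990321 had 52.2% of 69 and 19.0% of 79 in these libraries, and 12989746 had 24.7% of 97 and 18.6% of 118. Differences the other way were 12990373, at 18.8% of 64 reads in untreated replicate 2 and 76.9% of 108 in dTAG13 replicate 2, and, from untreated replicate 1 to dTAG13 replicate 2, 12989863 (16.4% of 67, 26.8% of 97) and 12986596 (14.2% of 260, 18.6% of 263). The position 12990156 was at 100% of 50 reads in untreated replicate 2 and 100% of 57 in dTAG13 replicate 2. The position 12990051 was listed in 3 libraries, at 46.3% of 41 reads and 100% of 45 untreated and 100% of 20 in dTAG13 replicate 1, a difference of 26.8 points in the group means (quasi-binomial fit over 9092 positions, adjusted p = 0.871). Its untreated replicates alone were 53.7 points apart. High levels in a single library were listed at 12987015 (100% of 77) and 12986537 (98.2% of 55) in untreated replicate 1 and at 12986849 (90.6% of 53) and 12986835 (90.9% of 55) in dTAG13 replicate 2.

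Myc, the founding gene of the family, had fewer listed positions, a lower summed level and lower coverage in both dTAG13 libraries. It had 20 and 14 listed positions untreated and 9 and 10 with dTAG13 (17 ± 4.24 against 9.5 ± 0.71; SD, n = 2). The edgeR log2 change was −0.83 ± 0.37 (SE; adjusted p = 0.273). It was −0.11 ± 0.57 (SE) with gene coverage as offset, where the error exceeded the estimate, and −0.33 with TMM normalisation. Its summed level was 10.7 and 6.99 untreated and 4.39 and 4.39 with dTAG13, a log2 change of −0.98 ± 0.40 (SE; limma adjusted p = 0.503), with no overlap. Positions of at least 50% numbered 10 and 6 against 3 and 4.

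The positions of Myc that recurred had low levels. In its middle cluster, chr15:61859963 was at 15.04% of 113 reads and 17.3% of 168 in the untreated libraries only, and 61860035 was at 28.5% of 200 and 11.7% of 188. Positions listed in both conditions were 61859975 (13.8% of 167 in untreated replicate 2, 25.8% of 31 in dTAG13 replicate 1), 61859991 (15.1% of 239, 20.0% of 30 in the same libraries) and 61860063 (11.2% of 375 in untreated replicate 1, 13.0% of 193 in dTAG13 replicate 2). All 3 were higher with dTAG13, by a median of 4.94 points, on few reads in dTAG13 replicate 1. In its 3′ cluster, 61862015 was listed in the dTAG13 pair only, at 33.3% of 105 reads and 36.3% of 281.

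None of the 8 high positions of Myc was listed in a second library. Untreated replicate 1 listed 61859851 (100% of 78), 61859938 (80.5% of 87), 61861351 (100% of 51) and 61861945 (98.7% of 153). Untreated replicate 2 listed 61859454 (100% of 111), 61859542 (81.4% of 328) and 61859768 (100% of 62), and dTAG13 replicate 1 listed 61857497 (100% of 52). The last cluster of Myc held 4 and 2 positions of at least 50% untreated and 0 and 1 with dTAG13, as the maps of the 3 genes show.

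**Figure D2:**
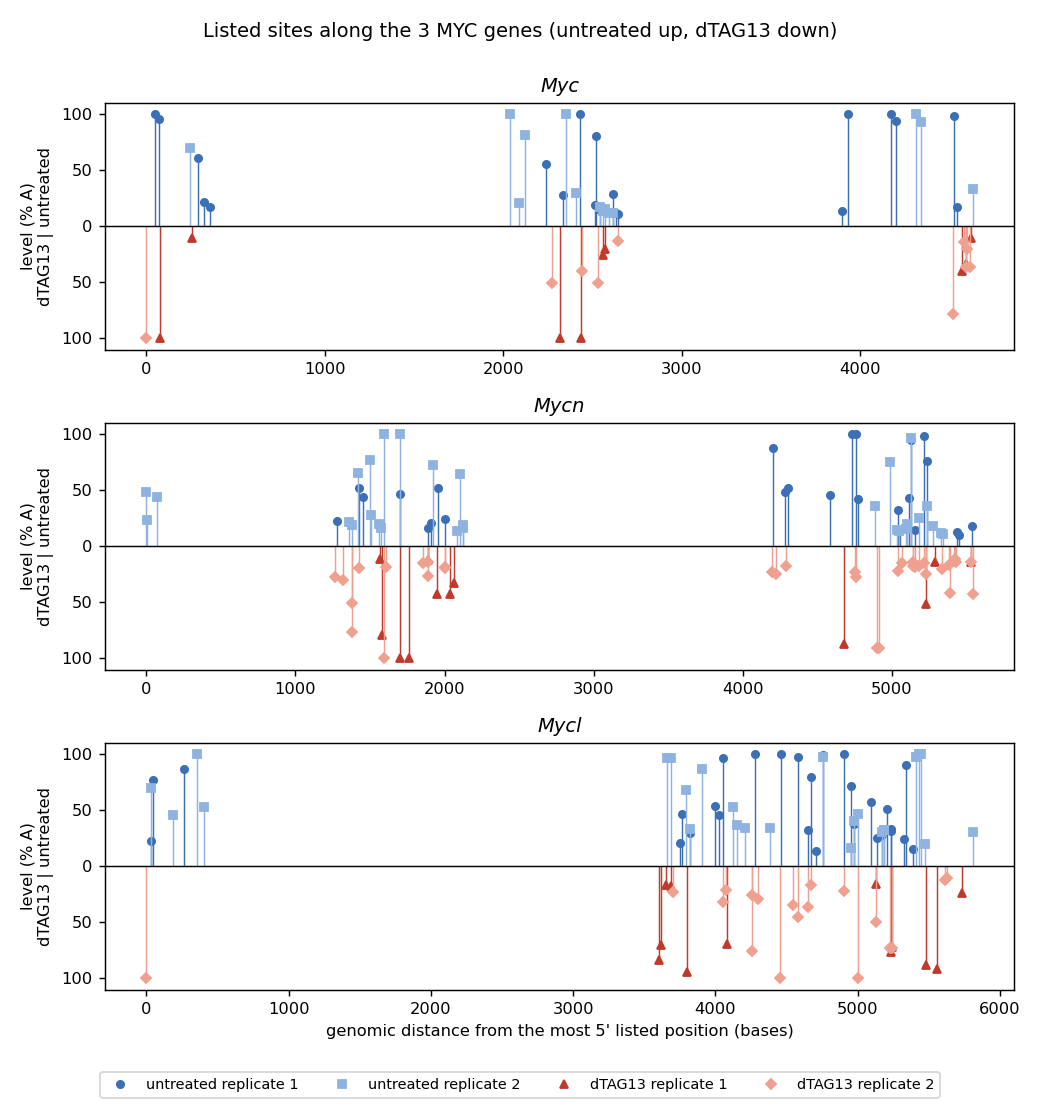
Level of each listed position of Myc, Mycn and Mycl against its genomic distance in bases from the most 5′ listed position of the gene; untreated libraries point up and dTAG13 libraries point down. In the last cluster, positions of at least 50% number 4 and 2 untreated against 0 and 1 with dTAG13 for Myc, and 7 and 2 against 2 and 2 for Mycn, where untreated replicate 2 equals the dTAG13 libraries, and the 5′ cluster of Mycl holds 3 and 4 untreated positions against 0 and 1 with dTAG13.

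Max, the shared dimerisation partner, stood apart from the MYC genes in its number of positions. It had 14 and 12 listed positions untreated and 17 and 21 with dTAG13, or 13.0 ± 1.41 against 19.0 ± 2.83 (SD, n = 2). Each dTAG13 library exceeded each untreated library, and the edgeR log2 change was 0.54 ± 0.32 (SE; adjusted p = 0.364). The summed level was 4.12 and 3.99 untreated and 6.14 and 5.13 with dTAG13, also without overlap (log2 change 0.47 ± 0.36 (SE); limma adjusted p = 0.639).

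The position of Max with the most untreated reads among its recurrent ones, chr12:76985194 on the minus strand, was lower with dTAG13. It was at 71.7% of 674 reads (68.1 to 74.9%) and 50.4% of 232 (44.0 to 56.8%) in the untreated libraries. dTAG13 replicate 2 had 11.6% of 164 reads (7.54 to 17.4%), and dTAG13 replicate 1 did not list it. The difference of the means was −49.5 points, larger than the 21.2 points between the untreated replicates. In the quasi-binomial fit of the 9092 positions listed in at least 3 libraries, a set added after the data were seen, its adjusted p was 0.467, and 0% of these positions passed. Fisher's exact test on the reads pooled over libraries gave 8.3e-41, which ignores the spread between replicates. None of the 7 genes had a position among the 2321 that every library listed on 20 or more reads, of which 2.28% passed.

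The other recurrent positions of Max were at 31% or below. The untreated pair shared 76984371 (11.5% of 209 reads, 12.5% of 248), and the dTAG13 pair shared 76984535 (30.8% of 224, 23.1% of 121). Untreated replicate 2 listed 77008825 at 10.8% of 231 reads, where dTAG13 replicate 1 had 16.9% of 77. It listed 76984517 at 24.0% of 25 reads, where dTAG13 replicate 2 had 15.1% of 119. The only high position of Max, 76985495 at 100% of 148 reads, was in dTAG13 replicate 1.

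Mga, which encodes the large MAX partner of the polycomb complex, did not separate the groups. It had 74 and 67 listed positions untreated and 56 and 76 with dTAG13 (70.5 ± 4.95 against 66.0 ± 14.1; SD, n = 2; edgeR log2 change −0.09 ± 0.20 (SE), adjusted p = 0.804). Its summed level was 32.2 and 32.7 untreated and 27.6 and 37.5 with dTAG13 (log2 change −0.01 ± 0.38 (SE), limma adjusted p = 0.993). In both readouts the dTAG13 libraries lay on either side of the untreated pair.

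Recurrent positions of Mga lay mostly in its 3′ stretch. The untreated pair shared chr2:119794849 (46.4% of 28 reads, 50.0% of 44), 119795537 (85.2% of 229, 54.2% of 24), 119796229 (12.7% of 251, 14.5% of 179) and 119796596 (23.9% of 415, 12.7% of 251). It also shared 119797389 (23.2% of 95, 15.9% of 352) and, further 5′, 119769117 (22.5% of 71, 50.0% of 16). The dTAG13 pair shared 119797868 (15.4% of 136, 51.5% of 460), 119788799 (50.0% of 58, 38.8% of 147) and 119763153 (51.5% of 66, 100% of 62). Replicates differed widely at some of them, by 48.5 points at 119763153 and 36.1 points at 119797868.

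Of the 9 positions of Mga listed in both conditions, 3 were lower with dTAG13, 5 higher and 1 equal. Lower were 119777503 (95.8% of 118 reads in untreated replicate 2, 59.1% of 93 in dTAG13 replicate 2), 119796929 (45.6% of 114 in untreated replicate 1, 10.6% of 578 in dTAG13 replicate 2) and 119796844 (18.5% of 108, 14.7% of 129 in the same libraries). Higher from untreated replicate 1 to dTAG13 replicate 1 were 119792446 (10.7% of 112, 20.0% of 120), 119796814 (23.8% of 80, 100% of 17) and 119797223 (13.1% of 289, 42.8% of 243). Higher between the second replicates were 119796893 (11.6% of 404, 19.0% of 163) and 119797349 (22.3% of 220, 42.8% of 208). Equal was 119765989, at 92.3% of 26 reads in untreated replicate 1 and dTAG13 replicate 2.

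High positions of Mga seen in a single library were spread along the gene in both conditions. Untreated replicate 1 listed 119747224 (100% of 51), 119747239 (96.0% of 50), 119776653 (100% of 63), 119777879 (98.4% of 61) and 119794208 (85.3% of 116), and untreated replicate 2 listed 119797507 (85.7% of 91). dTAG13 replicate 1 listed 119754380 (86.0% of 186), 119765794 (100% of 241) and 119766127 (100% of 54). dTAG13 replicate 2 listed 119733633 (100% of 91), 119791423 (89.5% of 86), 119791427 (91.9% of 86), 119795954 (80.2% of 202) and 119797162 (100% of 87). With the recurrent positions included, the untreated libraries held 6 and 2 such values of Mga and the dTAG13 libraries 3 and 6, so the groups overlapped.

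Mnt, which encodes a MAX partner present in most cells, had fewer positions after dTAG13 but a summed level that overlapped. It had 29 and 38 listed positions untreated and 22 and 25 with dTAG13 (33.5 ± 6.36 against 23.5 ± 2.12; SD, n = 2). The edgeR log2 change of −0.51 ± 0.26 (SE; adjusted p = 0.308) equalled the median of all genes, −0.51. The summed level was 12.8 and 14.02 untreated and 9.67 and 13.5 with dTAG13 (log2 change −0.23 ± 0.39 (SE); limma adjusted p = 0.823).

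At chr11:74727505 Mnt had 100% of 271 reads (98.6 to 100%) and 88.5% of 113 (81.3 to 93.2%) untreated, and neither dTAG13 library listed it. The nearest position listed in dTAG13 replicate 1 was 5988 bases away, so coverage there is unknown for that library. The untreated pair also shared 74733805 (52.3% of 128, 12.8% of 117). Positions in both conditions were 74735052 (92.4% of 92 in untreated replicate 1, 100% of 119 in dTAG13 replicate 2), 74733164 (15.7% of 108, 12.4% of 129) and 74733170 (14.9% of 94, 19.6% of 102) in the same libraries, and 74734731 (19.0% of 63 in untreated replicate 2, 100% of 30 in dTAG13 replicate 1). Only 74733164 was lower with dTAG13.

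High positions of Mnt in a single library were again found in both conditions. Untreated replicate 1 listed 74733739 (100% of 75), and untreated replicate 2 listed 74722177 (96.6% of 88), 74733665 (98.4% of 61) and 74733787 (100% of 90). dTAG13 replicate 1 listed 74734793 (87.1% of 62) and 74735350 (100% of 66). dTAG13 replicate 2 listed 74727263 (98.8% of 81), 74727273 (100% of 77), 74734364 (100% of 50), 74734700 (98.4% of 64) and 74736160 (87.1% of 93).

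Mxi1, which encodes a MAX partner of the MAD family, had the lowest ratio of listed positions of the 7 genes. It had 28 and 27 positions untreated and 20 and 8 with dTAG13 (27.5 ± 0.71 against 14 ± 8.49; SD, n = 2; ratio 0.509). The edgeR log2 change was −0.97 ± 0.42 (SE; adjusted p = 0.266), with −0.46 without dTAG13 replicate 2 and −1.77 without replicate 1. The summed level was 8.16 and 10.5 untreated and 7.53 and 3.88 with dTAG13 (log2 change −0.78 ± 0.48 (SE); limma adjusted p = 0.583). The groups did not overlap in either readout, and dTAG13 replicate 2 was the lowest library in both, although its undivided coverage of Mxi1, 192, was the highest of the 4.

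The only position of Mxi1 shared by a pair was chr19:53360445, at 52.4% of 63 reads and 30.9% of 149 untreated. The other 7 recurrent positions paired an untreated library with dTAG13 replicate 1. Lower with dTAG13 were 53299231 (42.6% of 204 reads in untreated replicate 1, 11.0% of 228) and 53361153 (41.3% of 104 in untreated replicate 2, 36.8% of 38). Higher were 53361233 (10.9% of 302 in untreated replicate 1, 37.1% of 105), 53361272 (16.4% of 299, 45.9% of 98), 53361246 (10.3% of 312, 10.5% of 105) and 53361261 (10.3% of 311, 12.3% of 106), and 53361173 (27.4% of 117 in untreated replicate 2, 33.3% of 36). High levels were listed at 53360710 (82.0% of 61) in untreated replicate 2 and at 53299290 (98.8% of 86) and 53360754 (100% of 176) in dTAG13 replicate 1.

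Gene coverage, the deposited coverage value per gene, was used as a measure of message abundance. It was compared after dividing by the median gene of each library. In these bulk samples, fewer cells of a type and less RNA per cell cannot be told apart. Myc was at 1.49 and 1.86 times the library median untreated and 0.799 and 1.31 with dTAG13, a log2 change of −0.70 ± 0.30 (SE; limma adjusted p = 0.399). Without dTAG13 replicate 1, the library of lowest coverage, it was −0.35, and without replicate 2 it was −1.06. Mycn was at 1.62 and 1.93 untreated and 2.46 and 2.44 with dTAG13 (log2 change 0.47 ± 0.21 (SE); limma adjusted p = 0.406). The groups of Myc and of Mycn did not overlap and lay in opposite directions, but neither passed the threshold and the difference between the genes was not tested.

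Mycl was at 1.496 and 1.59 untreated and 2.05 and 1.41 with dTAG13, which overlapped (log2 change 0.14 ± 0.25 (SE); limma adjusted p = 0.832). Its fewer positions and lower summed level thus went with no separation in coverage, whereas those of Myc went with lower coverage. Max was at 1.69 in both untreated libraries and at 1.68 and 1.36 with dTAG13 (log2 change −0.16 ± 0.21 (SE); limma adjusted p = 0.772), so its larger number of positions did not go with more coverage.

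Among the antagonists, Mxi1 was higher in both dTAG13 libraries, at 1.62 and 1.36 untreated and 2.30 and 1.73 with dTAG13 (log2 change 0.43 ± 0.24 (SE); limma adjusted p = 0.477; 0.22 without dTAG13 replicate 1). Mga (0.878 and 0.882 against 0.860 and 1.22) and Mnt (1.62 and 1.32 against 1.17 and 1.33) overlapped. In all, 2 of the 7 genes were lower in both dTAG13 libraries (Myc, Max; background 29.2%) and 2 higher (Mycn, Mxi1; background 17%). None of the 7 and 0 of 12520 genes (0%) had a limma adjusted p under 0.05, and 0 of the 7 and 12.7% of all genes had an unadjusted p under 0.05.

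The unconverted share of a gene, the part of all its adenosine still read as A, is not limited to listed positions. It holds m6A and incomplete conversion together. For Mycl it was 7.02% and 8.26% untreated and 3.89% and 3.60% with dTAG13, so both dTAG13 values lay far below both untreated values. The log2 odds of conversion differed by 1.08 ± 0.28 (SE; limma adjusted p = 0.369). Mycl was the only one of the 7 with an unadjusted p under 0.05, as 12.3% of all genes had, and 0 of the 7 and 0 of 12520 genes (0%) passed after adjustment.

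Mycn had an unconverted share of 6.07% and 4.05% untreated and 1.599% and 3.37% with dTAG13 (log2 odds of conversion 1.13 ± 0.47 (SE); limma adjusted p = 0.423). Myc had 5.84% and 5.62% untreated and 2.20% and 5.28% with dTAG13 (0.78 ± 0.49 (SE); limma adjusted p = 0.537). Both separated the groups, but in Myc the value of dTAG13 replicate 2 was close to the untreated pair, and without dTAG13 replicate 1 its difference was 0.13 (Mycn 0.58). Library medians over all genes were 4.15% and 3.78% untreated and 3.13% and 3.26% with dTAG13.

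Max had 6.02% and 5.79% untreated and 3.05% and 5.08% with dTAG13, lower in both although it had more listed positions. Mxi1 had 3.23% and 4.02% untreated and 3.01% and 2.26% with dTAG13. Centring on the median gene took the log2 odds from 0.78 to 0.46 for Myc, from 0.61 to 0.29 for Max and from 0.48 to 0.16 for Mxi1, while Mycl was at 0.76 and Mycn at 0.81. Conversion was higher in both dTAG13 libraries for 5 of the 7 genes, where 40.9% of all genes were. Mnt was the only gene with lower conversion in both dTAG13 libraries, which 6.05% of genes had. Its unconverted share was 5.262% and 4.359% untreated against 5.267% and 5.817%, and its lowest dTAG13 value exceeded the highest untreated value by 0.005 points. Mga overlapped, at 4.23% and 2.85% untreated and 3.25% and 7.06% with dTAG13.

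**Figure D3:**
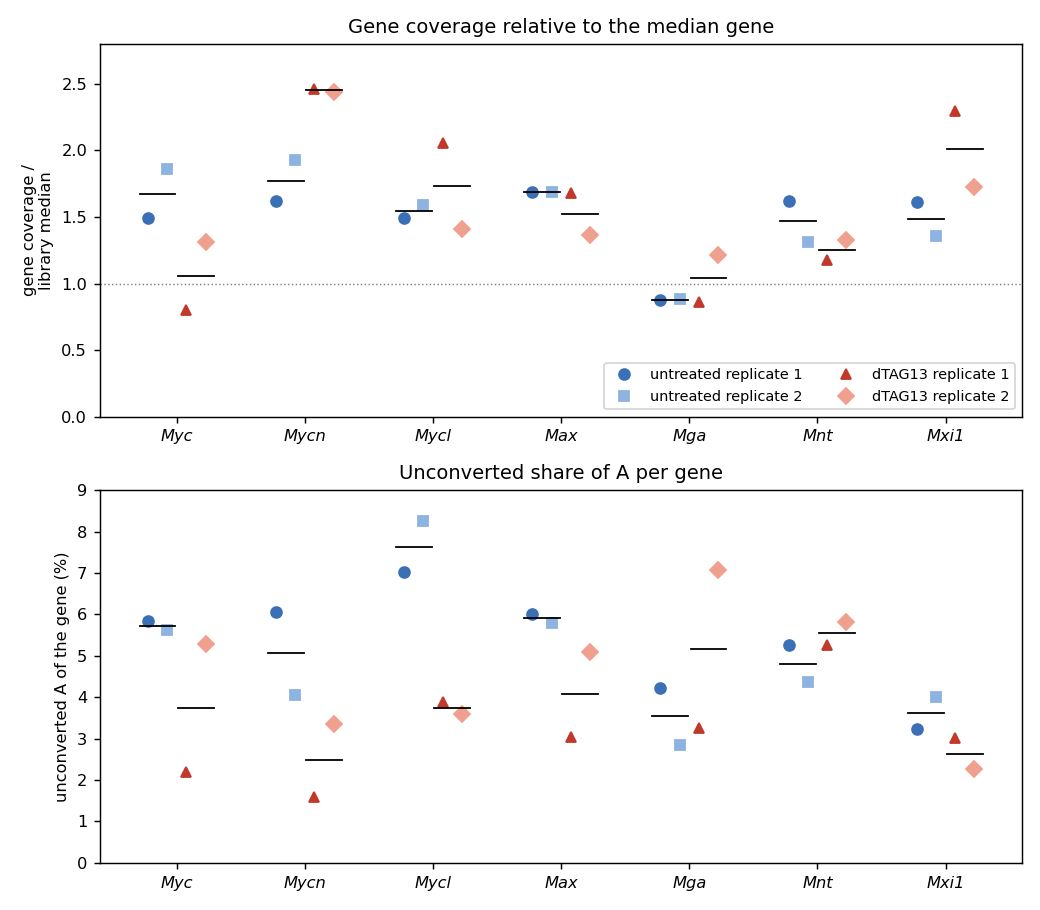
Gene coverage divided by the library median (upper) and the share of adenosine left unconverted in the gene (lower) in each library; black lines are group means of the 2 libraries. Mycl shows overlapping coverage and the widest gap in unconverted share, 7.02% and 8.26% against 3.89% and 3.60%, and Myc and Mycn lie on opposite sides in coverage.

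Most positions of the network genes were listed once. Of the 702 positions, 634 (90.3%) were in 1 library, 66 in 2, 2 in 3 and none in all 4, beside 91.4% in 1 library for all genes. Mycl had the largest share of recurrent positions, 13 of 71 in 2 libraries, and Mnt the smallest, 6 of 108. The untreated pair shared 22 positions and the dTAG13 pair 8. Of the 22, 20 (90.9%) were listed in neither dTAG13 library, as were 20066 of 25086 such positions of all genes. Of the 8, all were absent from both untreated libraries, where the share over all genes was 68.8%.

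As shares, the untreated libraries recovered 10.2% of each other's positions (44 of 430 pooled over both directions; Wilson 95% interval 7.71 to 13.5%). The dTAG13 libraries recovered 4.88% of the untreated positions (42 of 860; 3.63 to 6.54%), beside 9.41% and 5.07% over all genes. Going the other way, 6.14% of dTAG13 positions were found in an untreated library and 4.68% in the other dTAG13 library. Recovery of these genes thus followed that of all genes, and pairs with a dTAG13 library had the lower shares in both. Pooling counted each of the 22 shared untreated positions in both directions, and each untreated position against both dTAG13 libraries. The intervals treat these counts as independent and are therefore too narrow. They do not measure the spread between libraries.

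High levels were no exception. A level of at least 80% on at least 50 reads was found at 59 positions of the 7 genes, and 48 of these were listed in 1 library only. In 5 of the 59 the position was listed in both libraries of a group: Mycn 12986619, Mycl 122895119, Mnt 74727505, and Mga 119795537 and 119763153. The first 3 kept at least 88.5% in both untreated libraries, and the 2 positions of Mga did not keep 80% in both. Of 148 values of at least 80% at any depth, 36 (24.3%) had another such value within 30 bases in the same library, beside 19.6% for all genes. The Wilson 95% intervals of the 186 levels named here had a median width of 11.9 points, from 1.40 to 44.0, and they cover counting error only.

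At the 40 positions listed in both conditions, the median difference was 3.08 points, with 15 lower and 23 higher with dTAG13. Over all genes it was 1.57 points, with 19097 lower and 24801 higher. A position that fell below the listing limit of 10% is not in this set, which favours rises among low positions. The direction depended on which level was used to choose positions. At the 15 positions with at least 40% untreated, the median difference was −35.1 points, with 11 lower and 2 higher. At the 25 below 40% it was 6.06 points, with 4 lower and 21 higher (3.49 points over all genes, with 12433 lower and 22644 higher). At the 13 positions with at least 40% with dTAG13, the median difference was 26.8 points, with 2 lower and 9 higher (29.8 points over all genes). Each choice favours a difference away from the library used to choose, and between the untreated replicates, the 11 positions with at least 40% in replicate 1 had a median difference of −21.2 points. Over all genes, the medians at positions with at least 40% untreated, or in untreated replicate 1, were −24.1 points between conditions and −11.7 points between the untreated replicates. Mycl had the largest shift, a median of −58.0 points at 6 positions, and Myc had 4.94 points at 3.

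**Figure D4:**
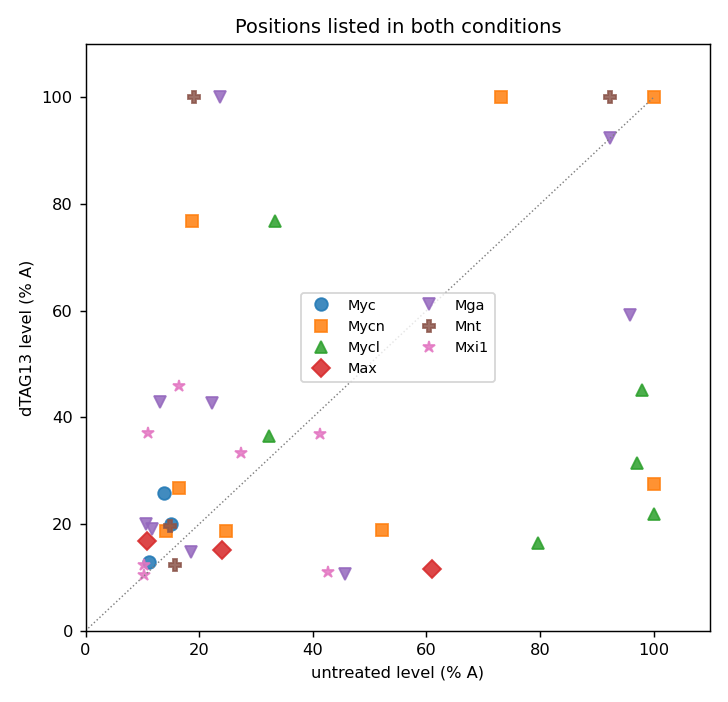
Level with dTAG13 against untreated level at the 40 positions listed in both conditions, coloured by gene; a group level is the mean of the libraries that list the position, and the dotted line marks equal levels. Mycl and Mycn positions near 100% untreated lie at 21.8% to 45.2% with dTAG13, apart from the Mycn position at 100% in both conditions. These lower levels come from untreated replicate 1 and dTAG13 replicate 2 only. High untreated positions of other genes lie at 92.4% and 100% (Mnt), 92.3% in both conditions (Mga) and 95.8% and 59.1% (Mga). Positions of all genes at 10% to 30% untreated lie mostly above the line.

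Other genes of the pathway were read in 4 lists, and none of their genes had an adjusted p under 0.05 in edgeR's test of listed positions or in the limma fits. In the MLX and MXD branch, whose proteins pair with MAX or its relative MLX, 4 of the 5 genes tested had fewer listed positions in both dTAG13 libraries (46.4% of all genes). Their median log2 change was −1.47 over the 5 genes beside −0.51 for all genes. The MXD genes among them had at most 10 listed positions in any library, so this median rests partly on small counts. For these lists, genes with the extreme coverage changes were ranked after dividing by the library median, whereas the coverage values printed are undivided. The branch had no gene with separated coverage, and its extremes were Mlx (138 and 89.5 untreated, 86.1 and 178 with dTAG13) and Mlxipl (110 and 34.6 against 20.4 and 96.2). Among 14 MYC cofactors and turnover factors, 8 had fewer listed positions in both dTAG13 libraries, as did 46.4% of all genes (median log2 change −0.76). Ruvbl1, a MYC-bound ATPase, had the lowest coverage change of that list, 139 and 215 untreated against 94.3 and 110 with dTAG13, and Mycbp2 the highest, 57.0 and 51.1 against 56.1 and 80.3, which overlap undivided and separate after division (log2 change 0.40).

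Among the listed partners of MGA in the polycomb complex PRC1.6, 2 of 8 had fewer listed positions in both dTAG13 libraries (46.4% of all genes). In 1 there were more (4.51% of all genes), and the median log2 change was −0.17. Cbx3, its chromodomain subunit, had coverage of 1160 and 1177 untreated and 683 and 859 with dTAG13, and L3mbtl2 had 63.6 and 87.0 against 77.4 and 98.03.

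The 19 growth and nucleolar target genes of MYC had a median change in listed positions of 0.02, beside −0.51 for all genes. Of these 19, 5 were lower (46.4% of all genes) and 2 higher (4.51%) in both dTAG13 libraries. Their coverage after centring was lower in both dTAG13 libraries for 11 of 19 (29.2% of all genes) and higher for 2 (17%). The median log2 change in coverage was −0.19 beside −0.07 for all genes. Ldha, the lactate dehydrogenase gene, had 3775 and 4058 untreated and 1916 and 3029 with dTAG13 (log2 change −0.62 ± 0.21 (SE); limma adjusted p = 0.364), and Nop2, a nucleolar RNA methyltransferase gene, had 130 and 140 against 159 and 168.

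The genes nearest to Myc over 8 values, the log2 coverage and log2(listed positions + 1) in each library, were Mvb12a, Rnf121 and Mrpl2, at Euclidean distances of 0.637, 0.639 and 0.689 among 12519 genes. Those nearest to Mycn were Lfng, Dnaja1 and Mex3d, at 0.772, 0.826 and 0.833. Mvb12a had 21 and 16 listed positions untreated and 11 and 11 with dTAG13, much as Myc did. Lfng, which encodes a glycosyltransferase that modifies Notch, had 24 and 31 untreated and 16 and 23 with dTAG13. Likeness here describes these 4 libraries and nothing more.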

How the data were processed

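GLORI libraries of polyA RNA from 4 samples were analysed, 2 untreated and 2 with dTAG13, grouped by their titles. The authors deposited 1 table of called positions per library. Per the file headers, these hold counts of A and G reads and of A reads, a fraction (the level), a fraction for the conversion rate of the gene, a coverage signal per gene, and a p-value per position. The deposited counts, levels and coverage are not normalised. The submitters' processing notes name mm10; aligner, caller and duplicate handling are not given in the sources used here.

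Positions were summed per gene and tested with edgeR 4.0.16 quasi-likelihood without normalisation (genes with at least 10 positions over the 4 libraries), and summed levels, coverage centred on the median gene and log2 odds of conversion with limma 3.58.1 in R 4.3.3, over all genes listed in all 4 libraries. DESeq2 1.42.0 was an alternative. Benjamini-Hochberg adjustment ran over all genes tested, with a threshold of 0.05. Levels per position used a quasi-binomial model with moderated dispersion. Single sums were compared by exact two-sided permutation. The fits were tested on simulated data. In a fit of 12449 genes, edgeR recovered 73.5% of the simulated 8-fold falls in listed positions. This share was not split by the number of listed positions. It therefore does not give the power for genes with few of them, such as Myc and Max. In fits of 12520 genes, limma recovered 100% of simulated log2 effects of 2 in coverage, −3 in summed level and 2 in the odds of conversion. Every gene had the same spread in these simulations. These effects were larger than any limma change of the network genes, and smaller ones were not simulated. The share therefore does not give the power for changes of the size seen here. The 3-library position fit, with 9092 positions, recovered 10% of differences of −53.8 points.

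Named positions are those listed in at least 2 libraries (68) or with a level of at least 80% on at least 50 reads (59), 116 in all. Of the other lists, the genes with the largest rise and fall in coverage are named; 1 further list is not reported here. The members and lists were chosen with earlier results of these data known. Alternatives covered normalisation, coverage as offset, filters on reads, level and p-value, centring, each library left out, and the replicate number as a block. No sequence is printed, since no genome of the tables' build was used here.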

Additional observations from a re-analysis of the deposited data

How the results depend on the processing

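None of the 7 genes passed an adjusted p of 0.05 in any alternative run that gave it one. DESeq2 gave no adjusted p for Myc, Mycn, Mycl, Max and Mxi1. The ratio of listed positions of the 7 genes stayed below 1, from 0.688 to 0.902 with each library left out. For positions of at least 50% that range was 0.740 to 0.863, and with at least 50 reads the ratio was 0.941. Matching positions within 2 bases moved the recovery of untreated positions in dTAG13 libraries from 4.88% to 7.33%, and over all genes from 5.07% to 8.12%. Between the untreated libraries it moved from 10.2% to 10.9%, and over all genes from 9.41% to 13.3%. The cause was not tested. The sign turned, with no value called, in these cases. For listed positions, TMM normalisation gave log2 changes of 0.29 for Mycn and 0.40 for Mga, and a minimum of 30 reads gave 0.12 for Mga. TMM also moved Mnt from −0.51 to −0.0071 and Max from 0.54 to 1.04 with no change of sign. For summed levels, Mga was at 0.27 with a minimum of 30 reads and 0.42 after centring, and Mnt was at 0.20 after centring. With 1 library left out, listed positions ranged from −1.16 to 0.37 for Mycn and −0.33 to 0.11 for Mga, and summed levels from −0.24 to 0.21 for Mga and −0.47 to 0.0066 for Mnt. Coverage ranged from −0.13 to 0.41 for Mycl and −0.032 to 0.47 for Mga, and log2 odds of conversion from −1.08 to 0.10 for Mga.

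Replicate numbers did not pair the libraries: deviations of same-numbered libraries correlated at r = 0.002 to 0.008 over all genes. With the replicate number as a block, 0 of the 7 genes were called in each fit. Over all genes, listed positions gave 66 calls with TMM normalisation (22 lower) and 128 with gene coverage as offset (104 lower), against 0 in the fit used and 0 with DESeq2, and uncentred coverage gave 15 (9 lower). Other settings for levels per position were not run, since no position of these genes was listed in all 4 libraries; at the positions listed in 3, chosen after the data were seen, Fisher's exact test on pooled reads gave 0.0113 for Mycn and 8.3e-41 for Max. With 2 libraries per group, absence of a call does not show equal levels, and a missing position has no level.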
